A study of Mus musculus with 16 samples.

Results

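Transcript levels of 10 members of the Notch pathway were followed in embryonic cortex lacking *Knl1*, with or without *Trp53*. The members are the receptors *Notch1*, *Notch2* and *Notch3*, the ligands *Dll1*, *Dll3*, *Jag1* and *Jag2*, the transcription factor *Rbpj*, the glycosyltransferase *Lfng* and the adaptor *Numb*. They were chosen by name as parts of the pathway, and all 10 were present among the 51912 genes listed in the count tables. The data are UMI RNA-seq counts from micro-dissected E15.5 cerebral cortex of 15 mice of mixed genetic background. Of these mice, 7 were ctrl, 4 were cKO and 4 were dKO. The 7 ctrl mice comprised 5 that were Casc5 wild type and 2 that were Casc5 heterozygous (mice T4 and T5), Casc5 being the older name of *Knl1*, which encodes a kinetochore scaffold needed for chromosome segregation. The cKO mice were hGFAP-Cre Casc5 conditional KO, and the dKO mice were hGFAP-Cre Casc5/Trp53 double conditional KO, which also lack the gene of the p53 tumor suppressor. The labels of ctrl mice name neither their Cre status nor their *Trp53* alleles. *hGFAP-Cre* acts in cortical neural progenitor cells (NPCs), so cells of other origin in the dissected tissue keep both genes.

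Notch signaling passes between touching cells. A Delta-like or Jagged ligand on one cell engages a Notch receptor on its neighbor, the receptor is cleaved, and its intracellular domain enters the nucleus and joins RBPJ to switch on repressors of the Hes and Hey families. In embryonic cortex this holds radial glia, the apical NPCs, in the progenitor state, while ligands are made by cells that express proneural factors such as NEUROG2 and are leaving that state.

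The mice came from 4 litters and 3 batches. Batch 1 held ctrl mice 2, 6 and S3 and cKO mice 5, 7 and S2, and batch 2 held ctrl mouse S1. Batch 3 held ctrl mice T3, T4 and T5, cKO mouse F3 and all dKO mice. Genotype and batch therefore largely coincide in cKO versus dKO and partly in dKO versus ctrl. Litter 1 held ctrl mice 2 and 6 and cKO mice 5 and 7, and litter 2 held ctrl mice S1 and S3 and cKO mouse S2. Litter 3 held ctrl mice T3, T4 and T5 and dKO mice T2 and T8, and litter 4 held cKO mouse F3 and dKO mice F1 and F7, with no ctrl mouse. The 2 libraries of mouse S2 differed by little more than sampling noise (chi-square per degree of freedom 1.14, against 3.56 to 27.4 for other pairs of cKO libraries) and were added together as 1 mouse. Total counts ran from 399832 to 3266227 in ctrl, from 4178461 to 8800987 in cKO and from 552186 to 5396803 in dKO, so that no ctrl mouse was sequenced as deeply as any cKO mouse. The unit of level is CPM, the count of a gene relative to the TMM-scaled library total. Before that scaling, the smallest level that 3 counts could show lay between 0.341 and 7.503 CPM in different mice, and these floors cover counting error only.

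The deleted genes were examined first. *Knl1* lay between 48.7 and 80.0 CPM in ctrl, between 50.004 and 80.4 CPM in cKO and between 33.4 and 58.2 CPM in dKO, and *Trp53* lay between 15.6 and 47.0 CPM in ctrl and between 19.8 and 32.3 CPM in dKO. Neither was called in any comparison. Which exons recombination removes is not given in the sources used here, and a count over the whole gene therefore does not check the genotype labels. With ctrl mouse T4 close behind at 80.0 CPM, the mouse labelled cKO S2 had the highest *Knl1* level of the 15 mice (80.4 CPM). It also had the highest level among the 4 cKO mice for 8 of the 10 Notch members, and across 3639 well-counted genes, those with 20 counts or more in each mouse, its deviations from the mean followed those of its ctrl littermates S1 and S3 (r = 0.42 and 0.48). Other littermates of unlike genotype had r of 0.52 and 0.79 in litter 4 (F3 with F1 and F7). In litters 1 and 3 such pairs ran from −0.011 to 0.36. For *Eomes*, a marker of intermediate progenitors, S2 was at 48.9 CPM, below every ctrl mouse (lowest 51.4 CPM). The cKO versus ctrl value of each member is therefore also given without S2, as are other values where stated. S2 was singled out partly by its levels of the members themselves. For members in which S2 was the highest cKO mouse, lower values and smaller FDRs without it follow in part from that choice. In cKO versus ctrl, the fits without S2 also keep its ctrl littermates S1 and S3, so that litter 2 then holds ctrl mice only. S3 had the highest ctrl level for 5 of the 10 members. How far this moved the values without S2 was not tested. Calls over all listed genes in cKO versus ctrl also rose, from 83 with S2 to 373 without it.

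The cortex expressed all 10 members, at unequal levels. The lengths used were those of all annotated exons of a gene merged, and need not match the transcripts present. They were 3917 bases for *Numb*, 12750 for *Rbpj*, 10782 for *Notch2* and 14232 for *Notch1*. Before division by length, mean ctrl levels were 94.3, 176, 135 and 114 CPM in that order, so the rank of *Numb* rests on length. Per kilobase of exon, the mean level in ctrl was highest for *Numb*, which encodes an endocytic adaptor that counters Notch, at 24.1 ± 1.65 CPM per kb (SD, n = 7). *Rbpj* followed at 13.8 ± 1.45 and *Notch2* at 12.5 ± 2.08 CPM per kb. These neighbors did not separate, since *Rbpj* exceeded *Notch2* in 4 of the 7 mice. *Notch1* was at 8.04 ± 1.27 CPM per kb, below *Notch2* and above *Dll1* in 7 of 7 mice each. *Dll1* (6.66 ± 1.82), *Lfng* (5.25 ± 3.05) and *Notch3* (4.42 ± 1.41 CPM per kb) overlapped one another. The lowest 3 members were *Jag2* (2.91 ± 0.306), *Jag1* (2.87 ± 0.595) and *Dll3* (2.19 ± 0.729 CPM per kb), of which *Jag2* exceeded *Jag1* in only 2 of 7 mice. Among the receptors the order was thus *Notch2*, *Notch1*, *Notch3*, and among the ligands *Dll1* stood first.

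**Figure D1:**
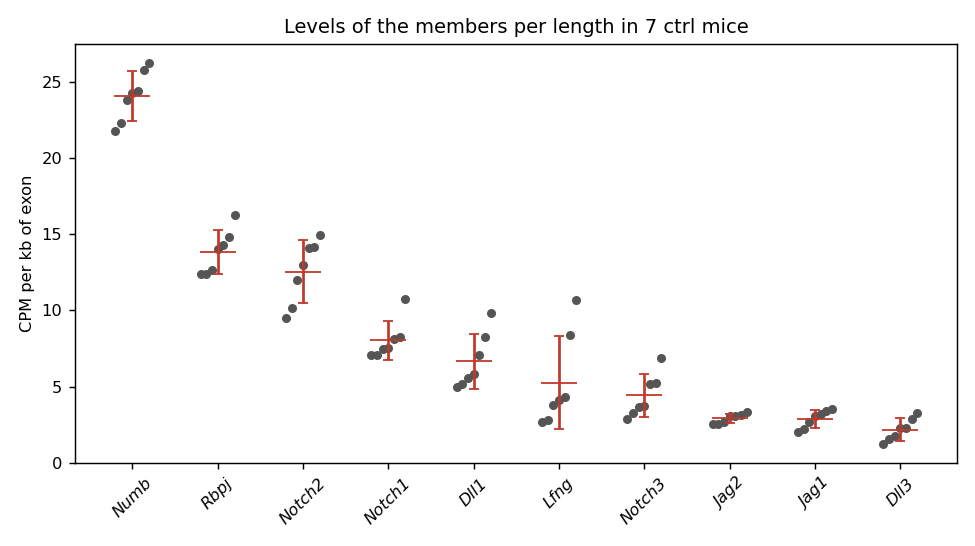
Levels of the 10 members in the 7 ctrl mice, as CPM per kilobase of merged annotated exons on a linear axis from 0. Each grey point is 1 mouse, and the red bar and whiskers give the mean and SD. *Numb* lies highest at a mean of 24.1 and *Dll3* lowest at 2.19 CPM per kb.

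No member passed FDR < 0.05 in any of the 3 comparisons by the edgeR likelihood ratio test. In cKO versus ctrl, all 3 receptors and *Rbpj*, *Lfng*, *Numb* and *Dll1* had negative log2 fold changes, and 4 members (*Notch2*, *Lfng*, *Notch1* and *Numb*) had an unadjusted p below 0.05, all 4 on the lower side. With litter as a covariate, *Notch2* (−0.42), *Notch1* (−0.27) and *Lfng* (−0.61) kept an unadjusted p below 0.05 and *Numb* (−0.14) did not, *Notch3* was at −0.15 and *Dll1* at −0.18, and *Jag1* (0.43) came under it on the higher side. Among the 10992 genes that passed the expression filter, 3.82% were on the lower side at that threshold in the fit without litter, and 4566 had negative values. The share with litter as a covariate was not computed. In the fit without litter, 0.16% of all listed genes passed FDR < 0.05. The median log2 fold change was −0.32 over the 10 members and 0.04 over the genes that passed the filter. Both other tools called 1 member in this comparison, which was *Notch2* by the edgeR quasi-likelihood test and by DESeq2. Of 8 radial glia markers, 7 had counts. Of these, 4 also had an unadjusted p below 0.05 on the lower side in cKO versus ctrl, and none was called. In a bulk sample, fewer cells of a type and less RNA per cell cannot be told apart.

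In dKO versus ctrl, 9 of the 10 members had negative values and 3 (*Rbpj*, *Numb* and *Notch3*) had an unadjusted p below 0.05, each on the lower side, against 2.42% of the 9638 genes that passed the filter. The median over members was −0.24, against 0.01 over those genes, of which 4507 had negative values. With litter as a covariate none of the 3 kept it (−0.28 for *Rbpj*, −0.29 for *Numb* and −0.36 for *Notch3*). *Dll3* did not pass the filter there. At FDR < 0.05, 0.0501% of all listed genes were called. In cKO versus dKO, 5 members had negative and 5 had positive values. Their median was −0.04, against 0.05 over the 12484 genes that passed the filter, of which 5056 had negative values. *Jag1* alone had an unadjusted p below 0.05, on the higher side, where 2.58% of genes lay. Without S2, *Jag1* (0.53) was no longer under that threshold. *Notch1* (−0.46), *Notch2* (−0.44) and *Dll1* (−0.55) then came under 0.05 on the lower side, none with an edgeR FDR below 0.05. The share of genes on that side was 1.53% with S2 and was not computed without it. With S2, 0.052% of listed genes passed FDR < 0.05. Neither the quasi-likelihood test nor DESeq2 called a member in these 2 comparisons. The comparisons of cKO and of dKO share their 7 ctrl mice, so their values are not independent of each other.

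**Figure D2:**
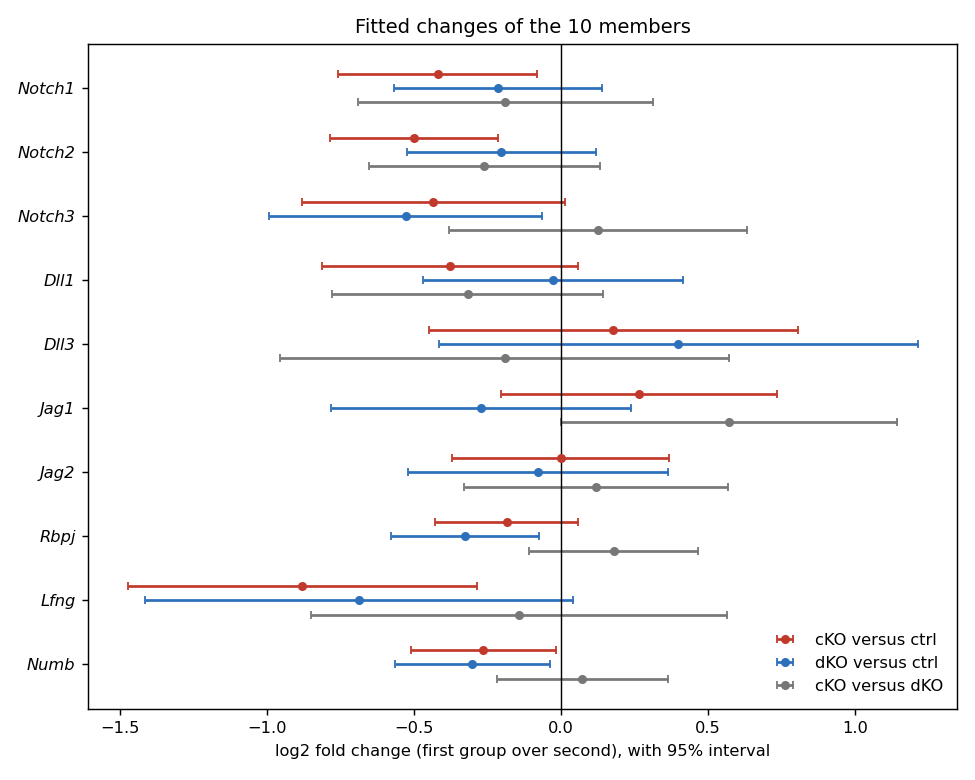
Log2 fold changes of the 10 members in cKO versus ctrl (red), dKO versus ctrl (blue) and cKO versus dKO (grey), with 95% intervals from the standard error of the fit. In cKO versus ctrl, the intervals of *Notch1*, *Notch2*, *Lfng* and *Numb* lie below 0, and no member passed FDR < 0.05.

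In what follows, levels of single cKO mice are listed in the order 5, 7, F3, S2, and those of single dKO mice in the order F1, F7, T2, T8. Among the receptors, *Notch2* (ENSMUSG00000027878; GRCm38 chromosome 3, 98013527 to 98150361, plus strand) had the smallest p of all members. In ctrl its lowest, median and highest levels were 102, 140 and 161 CPM. The 4 cKO levels were 85.1, 93.8, 85.5 and 127 CPM, and the 4 dKO levels were 126, 82.3, 118 and 156 CPM. Thus 3 of 4 cKO mice were below every ctrl mouse, S2 was within the ctrl range, and dKO mice spread across it, with F7 alone below. The log2 fold change in cKO versus ctrl was −0.50 (SE 0.15, 95% interval −0.78 to −0.21, edgeR FDR = 0.174). An exact permutation test over the 11 mice, two-sided on log2 CPM, gave p = 0.0212, and 0.00303 is the smallest p that 4 against 7 mice allow. This test relabelled mice freely across litters, although littermates were alike (median r of deviations 0.17 within litters and −0.15 between them). Its p values, here and below, therefore make no allowance for litter. Without S2, a mouse left out partly because of its member levels, the log2 fold change was −0.67 and the edgeR FDR was 7.3e-04. The gene also passed FDR < 0.05 with the quasi-likelihood test (FDR = 0.0055), DESeq2 (0.0277), the expression filter (0.0192) and sex as a covariate (0.0479). Over all 24 settings tried its FDR ranged from 7.3e-04 to 1, with 5 below the threshold and 24 negative values. Restricted to batch 1, with 3 cKO and 3 ctrl mice, the value was −0.45 (edgeR FDR of 1). The dKO versus ctrl value was −0.20 (SE 0.16, edgeR FDR of 1), and cKO versus dKO gave −0.26 (SE 0.20, edgeR FDR of 1).

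*Notch1* (ENSMUSG00000026923; chromosome 2, 26457903 to 26516663, minus strand), the receptor best known for keeping radial glia from differentiating, showed a like arrangement of mice. Lowest, median and highest ctrl levels were 100, 107 and 153 CPM. Single cKO mice had 74.8, 81.0, 63.0 and 129 CPM, and single dKO mice 97.2, 59.4, 141 and 115.5 CPM. Again 3 of 4 cKO mice lay below all ctrl mice and S2 lay among them, while the dKO mice of litter 4 (F1 and F7) were below all ctrl mice and those of litter 3 were within their range. The fit gave −0.42 in cKO versus ctrl (SE 0.17, 95% interval −0.76 to −0.08, edgeR FDR = 0.737, exact permutation p = 0.0515). Leaving out S2, with its ctrl littermates kept, gave −0.69 (edgeR FDR = 0.0013), and batch 1 alone gave −0.33. The dKO versus ctrl value was −0.22 (SE 0.18), which turned to 0.21 with litter as a covariate and to 0.13 without litter 4.

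*Notch3* (ENSMUSG00000038146; chromosome 17, 32120820 to 32166852, minus strand) is made by mural cells of vessels as well as by NPCs. Its ctrl levels had a minimum of 23.5, a median of 30.4 and a maximum of 55.8 CPM. Levels in cKO were 25.6, 27.0, 17.3 and 38.2 CPM, and those in dKO were 28.1, 17.9, 28.2 and 30.5 CPM. Only F3 and F7, both of litter 4, were below every ctrl mouse, and both groups overlapped ctrl. The log2 fold change was −0.43 in cKO versus ctrl (SE 0.23, 95% interval −0.88 to 0.01) and −0.53 in dKO versus ctrl (SE 0.24, 95% interval −0.99 to −0.06), both with an edgeR FDR of 1. Without S2 the first value was −0.66 (edgeR FDR = 0.221). Without litter 4 the second was −0.30. The summed level of 8 mural markers ran from 35.6 to 65.4 CPM in ctrl, from 56.7 to 73.6 in cKO and from 46.4 to 64.4 in dKO, all 8 being detected in each group. Their part in the *Notch3* values was not tested.

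**Figure D3:**
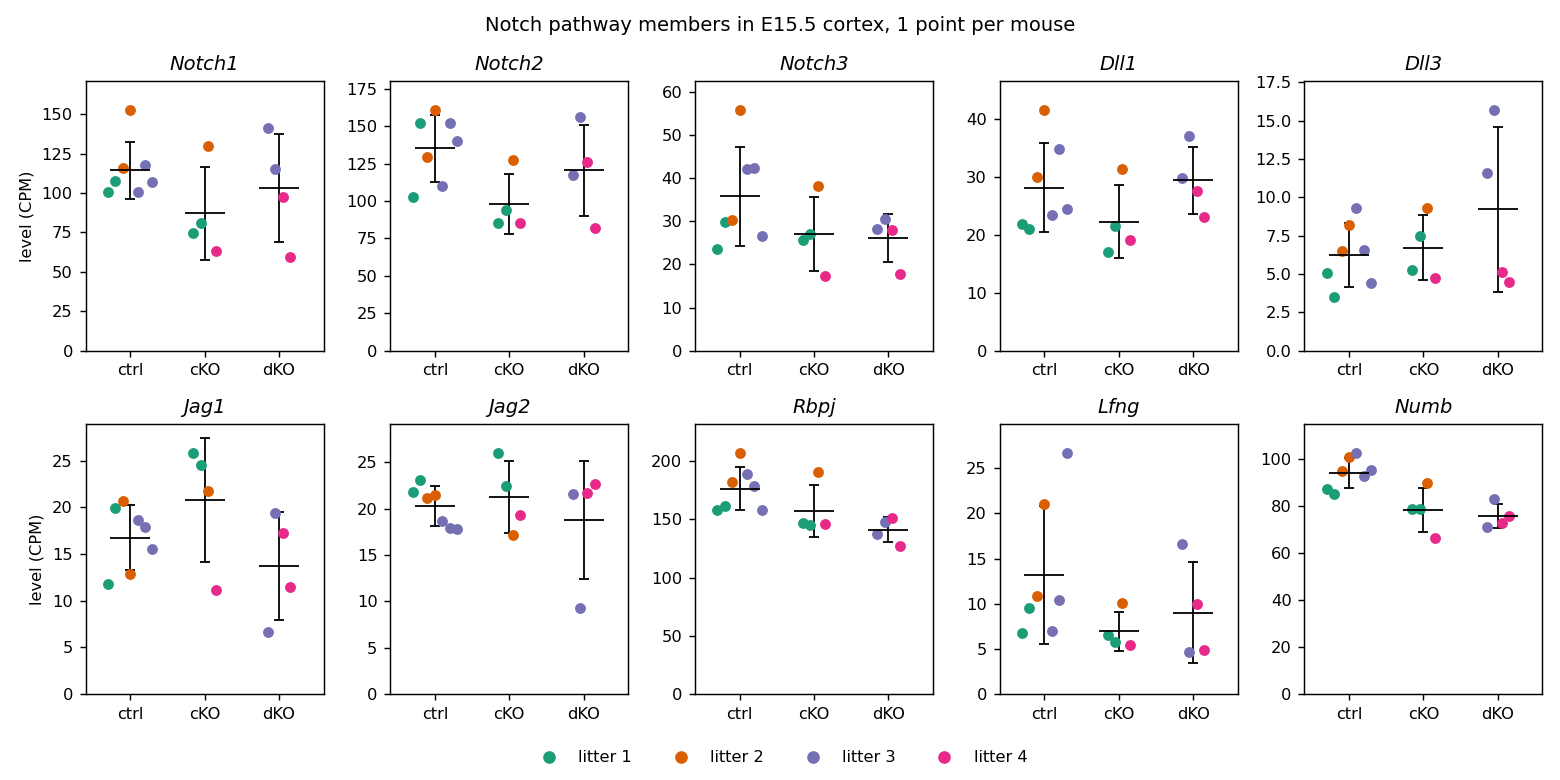
Levels of the 10 members in CPM, on linear axes from 0, in ctrl, cKO and dKO. Each point is 1 mouse, colored by litter, and the bar and whiskers give the mean and SD of the group. *Rbpj* and *Numb* in dKO lie below every ctrl mouse, and the litter 2 cKO mouse (S2) lies within the ctrl range for *Notch1* (129 CPM) and *Notch2* (127 CPM).

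Of the ligands, *Dll1* (ENSMUSG00000014773; chromosome 17, 15367354 to 15376872, minus strand) is the main Delta-like ligand of differentiating cells in the germinal zones. Ctrl levels were 20.9, 24.5 and 41.5 CPM at the lowest, the median and the highest mouse. They were 17.1, 21.5, 19.1 and 31.3 CPM in the cKO mice and 27.5, 23.1, 29.8 and 37.0 CPM in the dKO mice. The groups overlapped, with cKO mice 5 and F3 below every ctrl mouse and all dKO mice within the ctrl range. The value was −0.38 in cKO versus ctrl (SE 0.22, edgeR FDR of 1, exact permutation p = 0.188) and −0.61 without S2 (edgeR FDR = 0.287). The dKO value against ctrl was −0.03 (SE 0.23, 95% interval −0.47 to 0.42), and in cKO versus dKO −0.32 (SE 0.24), each with an edgeR FDR of 1.

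Proneural factors bind DNA at E-boxes, and RBPJ binds the core TGGGAA. The 250 bases before each start site in the RefSeq promoter table (GRCm38.p6) were searched for the E-box CAGCTG, which reads the same on both strands, and for TGGGAA on both strands. All 10 members matched the table, with 14 start sites. CAGCTG was found before 4 start sites, of *Dll1*, *Dll3*, *Jag1* and *Lfng*, and in 13.0% of all 32851 windows. TGGGAA was found before 3 start sites, both of *Rbpj* and that of *Lfng*, and in 21.6% of all windows. The 2 windows of *Rbpj* overlap, so that 1 of the *Rbpj* matches is counted in both. A match is a description of letters and not evidence of binding. The *Dll1* window is shown because *Dll1* is the ligand tied to proneural factors and because the called gene of the pathway, described further on, is such a factor. The other *Dll1* start site held no CAGCTG, and the bases that follow the site shown matched no annotated *Dll1* transcript. The window lies at chr17:15376933-15377182 on the minus strand, is written 5′ to 3′, and has the E-box, 132 bases before the RefSeq start, in capitals.
Dll1: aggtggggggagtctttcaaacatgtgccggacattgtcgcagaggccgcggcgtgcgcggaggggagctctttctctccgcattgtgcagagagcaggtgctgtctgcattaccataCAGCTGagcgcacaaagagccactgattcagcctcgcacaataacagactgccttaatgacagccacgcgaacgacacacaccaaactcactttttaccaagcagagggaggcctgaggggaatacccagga

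*Dll3* (ENSMUSG00000003436; chromosome 7, 28293553 to 28302238, minus strand), a divergent Delta-like protein that acts inside the cell making it, was the member with the fewest reads, from 2 to 16 counts in ctrl mice, 21 to 82 in cKO and 7 to 23 in dKO. Its ctrl levels were 3.48, 6.52 and 9.34 CPM at the minimum, median and maximum. The cKO levels were 5.28, 7.501, 4.77 and 9.33 CPM, all within the ctrl range, and the dKO levels were 5.13, 4.46, 11.6 and 15.7 CPM. The 2 dKO mice of litter 3 stood above every ctrl mouse and the 2 of litter 4 did not. At this depth no difference was detectable, with values of 0.18 in cKO versus ctrl (SE 0.32, and −0.05 without S2) and 0.40 in dKO versus ctrl (SE 0.42, 95% interval −0.42 to 1.21), both with an edgeR FDR of 1. Without litter 4 the dKO value was 1.21 (edgeR FDR of 1), and without T8 it was −0.08.

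*Jag1* (ENSMUSG00000027276; chromosome 2, 137081456 to 137116644, minus strand), a Jagged ligand made by progenitors and by vessels, was at 11.8, 17.9 and 20.6 CPM in the lowest, median and highest ctrl mice. Its cKO levels were 25.8, 24.5, 11.1 and 21.7 CPM and its dKO levels were 17.2, 11.4, 6.63 and 19.4 CPM. Mice 5, 7 and S2 stood above every ctrl and every dKO mouse, while F3 and the dKO mice F7 and T2 stood below every ctrl mouse. The log2 fold change was 0.26 in cKO versus ctrl (SE 0.24, and 0.24 without S2), −0.27 in dKO versus ctrl (SE 0.26) and 0.57 in cKO versus dKO (SE 0.29, 95% interval −0.00 to 1.14), and the edgeR FDR was 1 in each. For the last, the exact permutation p was 0.200, and 4 against 4 mice cannot go below 0.0286. Its sign depended on the litters compared. Litter 4, the single litter with both genotypes, had F3 below both dKO mice, and litter as a covariate gave −0.31.

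*Jag2* (ENSMUSG00000002799; chromosome 12, 112907819 to 112929776, minus strand), the other Jagged ligand, had values near 0 in the fits. Ctrl mice ran from 17.8 to 23.1 CPM with a median of 21.2, cKO mice were at 26.0, 22.5, 19.3 and 17.2 CPM, and dKO mice at 21.7, 22.7, 21.5 and 9.24 CPM. T8 was far from the rest, on 10 counts. The fit gave −0.0017 for cKO versus ctrl (95% interval −0.37 to 0.37, and 0.099 without S2), −0.08 for dKO versus ctrl (95% interval −0.52 to 0.36) and 0.12 for cKO versus dKO (95% interval −0.33 to 0.57), and each edgeR FDR was 1.

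*Rbpj* (ENSMUSG00000039191; chromosome 5, 53466152 to 53657362, plus strand) encodes the DNA-binding protein through which all Notch receptors act. Its lowest, median and highest ctrl levels were 158, 179 and 207 CPM. Those of the cKO mice were 147, 145, 146 and 190 CPM and those of the dKO mice were 151, 127, 138 and 148 CPM. All 4 dKO mice were below every ctrl mouse, as were 3 of 4 cKO mice. Of the genes that passed the filter in dKO versus ctrl, 0.695% had groups that did not overlap. The value in dKO versus ctrl was −0.33 (SE 0.13, 95% interval −0.58 to −0.08, edgeR FDR of 1), with an exact permutation p of 0.00606, and over 23 settings it stayed between −0.38 and −0.26. Within batch 3 it was −0.33, and within litter 3 both dKO mice were below the 3 ctrl mice. For cKO versus ctrl it was −0.19 (SE 0.12, edgeR FDR of 1) and −0.29 without S2 (edgeR FDR = 0.547). The pseudogenes *Rbpj-ps1* and *Rbpj-ps3* held 3 and 37 counts over all 15 mice, against 6703 for *Rbpj* itself.

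*Lfng* (ENSMUSG00000029570; chromosome 5, 140607320 to 140615545, plus strand) encodes a fucose-modifying enzyme that makes receptors favor Delta-like over Jagged ligands, and is itself a Notch target. It had the lowest log2 fold change of the members in both comparisons with ctrl. Ctrl levels were 6.72, 10.4 and 26.7 CPM at the minimum, median and maximum, on 3 to 41 counts. Levels in cKO were 6.50, 5.75, 5.46 and 10.1 CPM, on 23 to 89 counts, and those in dKO were 9.96, 4.85, 16.6 and 4.62 CPM, on 5 to 33 counts. Mice 5, 7 and F3 were below every ctrl mouse and S2 was not, and of the dKO mice F7 and T8 were below every ctrl mouse and T2 alone was above the ctrl median. The value was −0.88 in cKO versus ctrl (SE 0.30, 95% interval −1.47 to −0.29, edgeR FDR = 0.429, exact permutation p = 0.0909), −1.14 without S2 (edgeR FDR = 0.0476) and −0.78 within batch 1. Against ctrl the dKO value was −0.69 (SE 0.37, edgeR FDR of 1).

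The *Lfng* window is shown as the only member's window that held both motifs, as did 3.01% of all windows. The 229 bases before the annotated gene, at chr5:140607091-140607319 on the plus strand, are given 5′ to 3′ with the E-box CAGCTG (146 bases before the RefSeq start), TTCCCA (the core on the other strand, 135 bases before it) and TGGGAA (108 bases before it) in capitals.
Lfng: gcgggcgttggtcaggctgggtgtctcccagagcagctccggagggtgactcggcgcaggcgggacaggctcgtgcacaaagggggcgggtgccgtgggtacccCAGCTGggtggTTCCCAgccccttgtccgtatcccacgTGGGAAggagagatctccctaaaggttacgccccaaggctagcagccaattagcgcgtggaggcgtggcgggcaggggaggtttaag

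*Numb* (ENSMUSG00000021224; chromosome 12, 83794034 to 83921934, minus strand) varied least relative to its level in ctrl, at 85.2, 95.02 and 103 CPM at the lowest, median and highest mouse. Single cKO mice were at 78.8, 79.0, 66.6 and 89.8 CPM and single dKO mice at 73.1, 75.9, 71.3 and 83.2 CPM. No dKO mouse reached the ctrl range, and of the cKO mice only S2 did. For dKO versus ctrl the fit gave −0.30 (SE 0.13, 95% interval −0.56 to −0.04, edgeR FDR of 1). The exact permutation p of 0.00303 was the smallest that 4 against 7 mice can give when litter is ignored. The cKO versus ctrl value was −0.26 (SE 0.13, edgeR FDR = 0.903, exact permutation p = 0.00909) and −0.34 without S2 (edgeR FDR = 0.410). Within batches it was −0.13 in batch 1 for cKO and −0.36 in batch 3 for dKO. The exact permutation test had p below 0.05 in 4 of the 30 pairs of member and comparison, namely *Notch2* and *Numb* in cKO and *Rbpj* and *Numb* in dKO, each against ctrl, all on the lower side. Over genes that passed the filter, 2.26% had such a p on the lower side and 6.07% on the higher side in cKO versus ctrl, 2.73% and 1.86% in dKO versus ctrl, and 1.07% and 2.73% in cKO versus dKO, where no member had one. With a prior count of 0.5 in place of 2 there were 5 such pairs, the fifth being *Notch1* in cKO versus ctrl (exact permutation p = 0.0485).

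Litter 4 held no ctrl mouse, so its mice could be compared only between cKO and dKO. In litter 1, both cKO mice were below both ctrl mice for 5 members (*Notch1*, *Notch2*, *Rbpj*, *Lfng* and *Numb*) and above both for *Dll3* and *Jag1*, as were 15.3% and 24.6% of the genes that passed the filter. In litter 2, where the cKO mouse was S2, it was below both ctrl mice for *Notch2*, *Jag2*, *Lfng* and *Numb* and again above both for *Dll3* and *Jag1*, against 22.2% and 34.2% of genes. The differences of mean log2 CPM for *Notch2* were −0.48 in litter 1 and −0.18 in litter 2, and for *Notch1* −0.42 and −0.04. In litter 3, both dKO mice were below the 3 ctrl mice for *Rbpj* and *Numb* only, by 0.29 and 0.33 on the log2 scale, and above them for *Dll3*, against 8.93% and 10.4% of genes. *Numb* was thus lower in every knockout mouse than in every ctrl mouse of its own litter in litters 1, 2 and 3. In litter 4, F3 (cKO) was below both dKO mice for *Notch3*, *Dll1*, *Jag1*, *Jag2* and *Numb*, against 33.1% of genes, and above both for none, against 35.9% of genes. These values come from 1 to 3 mice a side and were not tested.

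**Figure D4:**
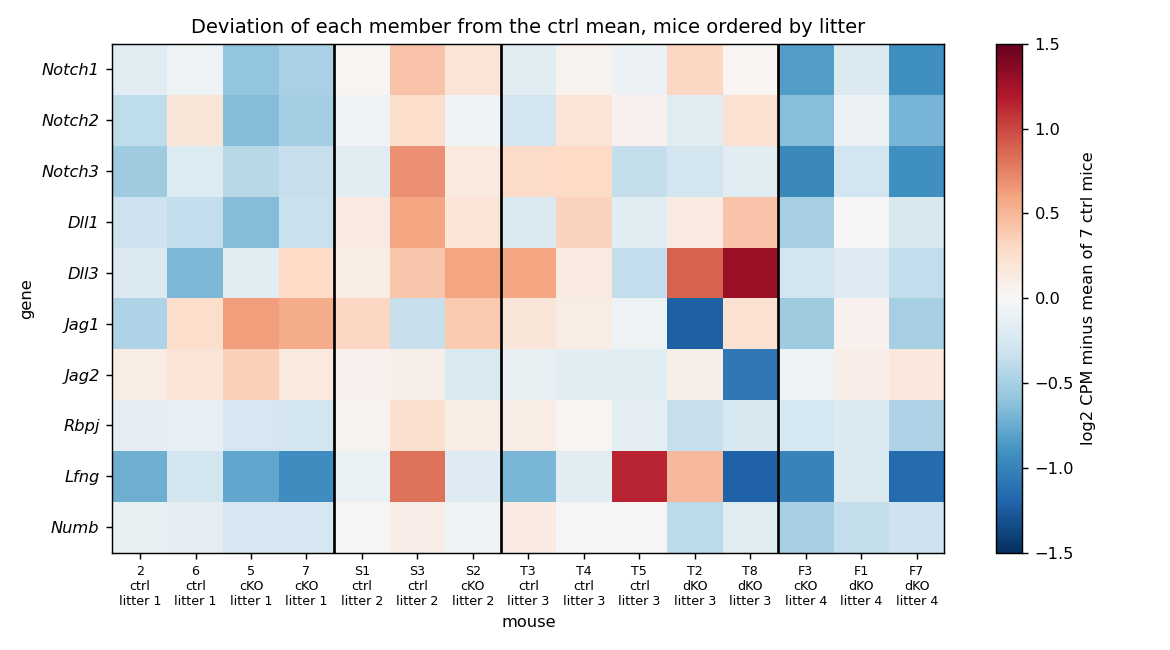
Deviation of log2 CPM of each member (rows) from the mean of the 7 ctrl mice, for 15 mice (columns) ordered by litter, with black lines between litters and the color scale running from −1.5 to 1.5. The cKO mice of litter 1 and F3 and F7 of litter 4 are blue for the 3 receptors, and S2 in litter 2 is close to its ctrl littermates for *Notch1* and *Rbpj*.

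The members did not all vary together across the 15 mice. Pearson's r of log2 CPM was highest between *Notch3* and *Rbpj* (0.85), *Notch1* and *Notch2* (0.83) and *Rbpj* and *Numb* (0.82), and lowest between *Dll3* and *Jag2* (−0.63) and between *Dll1* and *Jag2* (−0.52). For each member, the 2 genes with the highest r were taken from the same 3639 genes, so that high values follow from the choice. For *Notch1* they were *Prdm16* (r = 0.91, rho = 0.91) and *Msi2* (r = 0.91, rho = 0.91), and for *Notch2* they were *Ttyh1* (r = 0.96, rho = 0.94) and *Chd7* (r = 0.92, rho = 0.87). *Notch3* was closest to *Epha4* (r = 0.89, rho = 0.82) and *2610307P16Rik* (r = 0.88, rho = 0.88), and *Dll1* to *Boc* (r = 0.90, rho = 0.90) and *Spata13* (r = 0.89, rho = 0.93). *Rbpj* was closest to *Knl1* (r = 0.87, rho = 0.66) and *Jam3* (r = 0.87, rho = 0.87), *Lfng* to *Adgrg1* (r = 0.82, rho = 0.83) and *Arhgef10l* (r = 0.79, rho = 0.73), and *Numb* to *Trps1* (r = 0.89, rho = 0.90) and *Prkd1* (r = 0.89, rho = 0.87). *Dll3* (*Cep192* and *Ptk7*, r = 0.78 for each), *Jag1* (*Scyl2*, r = 0.86, and *Hdac4*, r = 0.82) and *Jag2* (*Epn2*, r = 0.85, and *Prkacb*, r = 0.81) completed the set. All points share the litters, depths and genotypes of these 15 mice.

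The rest of the pathway was read from a list of 46 further genes. In cKO versus ctrl, 1 of the 46 was called, on the lower side, which was the proneural factor *Neurog2*, and none was called on the higher side. Of all listed genes, 0.16% were called there in either direction. The median log2 fold change of the 46 was −0.03, against 0.04 over the genes that passed the filter. At an unadjusted p below 0.05, *Neurog2* was on the lower side, where 3.82% of the genes that passed the filter lay. *Dner* and *Neurl1a* were on the higher side, where 6.63% of genes lay. In dKO versus ctrl and in cKO versus dKO the edgeR likelihood ratio test, the quasi-likelihood test and DESeq2 called none of the 46, each of which had an adjusted p by each tool. Their medians there were −0.03 and 0.03. At an unadjusted p below 0.05 stood 3 genes in dKO versus ctrl. *Neurog2* and the target gene *Nrarp* (−0.72, named after its value was seen) were on the lower side, where 2.42% of genes lay. *Neurl1a* was on the higher side, where 3.31% of genes lay. In cKO versus dKO 1 gene stood below that threshold, *Dner*, on the higher side, where 2.58% of genes lay.

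*Neurog2* drives the passage from radial glia to intermediate progenitors and switches on Delta-like ligands. Its lowest, median and highest ctrl levels were 23.5, 38.6 and 48.9 CPM. Levels were 11.2, 16.3, 10.2 and 28.8 CPM in cKO and, in dKO, 26.0, 20.4, 18.2 and 35.1 CPM. It was below every ctrl mouse in 3 of 4 cKO mice and in 2 of 4 dKO mice, and S2 was again among the ctrl mice. It fell by 1.19 on the log2 scale in cKO versus ctrl (SE 0.25, edgeR FDR = 0.0056, exact permutation p = 0.00606). Without S2 the value was −1.64 (edgeR FDR = 1.5e-11). The differences in litters 1 and 2 were −1.14 and −0.49. The call was lost without cKO mouse 5 (edgeR FDR = 0.0967), 7 (0.0885) or F3 (0.0505), with Casc5 wild type ctrl mice only (0.119) and within batch 1 (FDR of 1, −0.95), and kept in the other 19 of 24 settings. In dKO versus ctrl the value was −0.64 (SE 0.20, edgeR FDR = 0.708), and in cKO versus dKO it was −0.55 (SE 0.32, edgeR FDR of 1), or −0.99 without S2 (edgeR FDR = 0.168).

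*Hes1* and *Hes5*, the usual Notch targets in radial glia, were too sparsely counted to compare closely. *Hes1* ranged over 4.45 to 15.4 CPM in ctrl, 3.45 to 12.6 in cKO and 6.40 to 9.24 in dKO, with a value of −0.47 in cKO versus ctrl (SE 0.38, edgeR FDR of 1) and −1.15 without S2 (edgeR FDR = 0.0736). *Hes5* lay between 0 and 8.20 CPM in ctrl, where T4 had no count and 3 counts would have been 2.94 CPM, between 2.5004 and 6.03 in cKO and between 1.36 and 11.6 in dKO. Its value was −0.02 in cKO versus ctrl (SE 0.45) and 0.45 in dKO versus ctrl (SE 0.59), each with an edgeR FDR of 1. Of the 6 target genes, 5 had negative values in cKO versus ctrl and 3 in dKO versus ctrl, and none was called. Over genes that passed the filter, 4566 of 10992 and 4507 of 9638 had negative values in these comparisons. Of the targets, *Hes5*, *Hey2* and *Heyl* did not pass it in cKO versus ctrl, and only *Nrarp* passed it in dKO versus ctrl.

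*Dner*, which encodes a neuronal membrane protein that can bind Notch, lay between 386 and 443 CPM in cKO, between 261 and 378 CPM in ctrl and between 295 and 388 CPM in dKO. The value in cKO versus ctrl was 0.39 (SE 0.12, edgeR FDR = 0.193, exact permutation p = 0.00606), and DESeq2 (FDR = 0.0177) and the quasi-likelihood test (0.0251) called it. Of 24 settings those 2 alone called it, with values from 0.29 to 0.45 over all 24 and 0.31 with litter as a covariate. Without S2 the value was 0.43 (edgeR FDR = 0.0733). *Neurl1a*, whose product is a ubiquitin ligase acting on ligands, had values of 0.43 in cKO versus ctrl (SE 0.21, edgeR FDR = 0.897, and 0.56 with FDR = 0.257 without S2) and 0.54 in dKO versus ctrl (SE 0.24, edgeR FDR of 1), with groups that overlapped. *Poglut1*, whose product adds glucose to Notch receptors, had the next smallest p in cKO versus dKO. Its levels were 28.0 to 33.4 CPM in cKO and 23.1 to 28.4 CPM in dKO, with groups that overlapped, and the value was 0.32 (SE 0.17, edgeR FDR of 1), or 0.25 without S2. None of the 10 genes of receptor cleavage, the 8 of receptor trafficking and turnover and the 6 of the nuclear complex was called in any comparison, and in cKO versus ctrl their medians were 0.01, 0.04 and 0.0049.

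**Figure D5:**
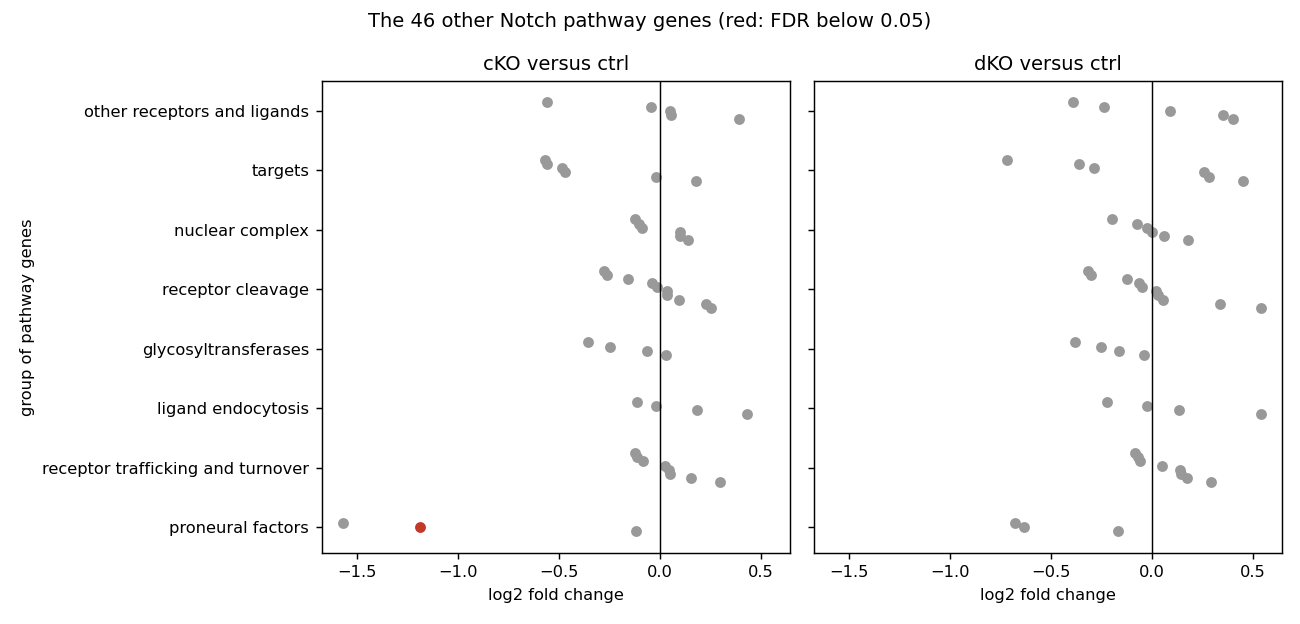
Log2 fold changes of the 46 other pathway genes in 8 groups, in cKO versus ctrl (left) and dKO versus ctrl (right). Each point is 1 gene, red where FDR < 0.05. *Neurog2* at −1.19 among the proneural factors in cKO versus ctrl is the only red point, and the point further left is *Neurog1*, on 58 counts in all 15 mice.

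Markers of the cell types in the tissue were also summed in ctrl, cKO and dKO. Of 8 radial glia markers, 7 were detected and *Sox2* had no count in any mouse, and of 8 excitatory neuron markers *Tubb3* had none. The paper stained SOX2+ progenitors in E15.5 cortex, so the missing *Sox2* counts do not show absence of expression. Why either gene had no count was not tested. By that staining, which marks protein in cells, the paper found significantly fewer SOX2+ and EOMES+ progenitors in cKO at E15.5. It found no significant decrease of either in dKO. The summed level of radial glia markers ran from 588 to 881 CPM in ctrl, from 593 to 760 in cKO, with S2 the highest, and from 590 to 848 in dKO. The 6 intermediate progenitor markers, all detected, had sums of 155 to 203 CPM in ctrl, 95.5 to 162 in cKO, with S2 the highest, and 106 to 170 in dKO, and 1 of the 6, *Eomes*, was called in cKO versus ctrl (−1.13, SE 0.18, edgeR FDR = 5.1e-06). The 8 interneuron markers had sums of 436 to 919 CPM in ctrl, 785 to 968 in cKO and 608 to 869 in dKO, and 1 of them, *Gad1*, was called in cKO versus ctrl (0.56, SE 0.14, edgeR FDR = 0.0408). Endothelial markers, 8 of 8 detected, had sums of 72.2 to 121 CPM in ctrl, 85.0 to 106 in cKO and 89.5 to 179 in dKO, with T8 the highest. The other lists, with all genes detected except *Tubb3*, gave summed levels in ctrl, cKO and dKO of 2524 to 2868, 2825 to 3396 and 2500 to 3173 CPM for excitatory neurons, and of 6.52 to 20.01, 11.6 to 22.3 and 11.1 to 23.2 CPM for microglia. Meningeal fibroblast markers gave 1.63 to 98.0, 2.96 to 9.09 and 0 to 95.2 CPM, with T3 and T8 the highest, choroid plexus markers 0.543 to 60.1, 1.36 to 3.50 and 2.52 to 26.8 CPM, and erythroid markers 9.41 to 25.0, 17.5 to 28.7 and 24.9 to 30.8 CPM. Of these lists, *Ttr* of the choroid plexus was called in both comparisons of cKO, on the lower side, and *Hba-a2* of erythroid cells in dKO versus ctrl, on the higher side. Without S2, *Eomes* (−1.36), *Gad1* (0.57) and *Ttr* (−5.52) were likewise called in cKO versus ctrl. *Eomes*, *Gad1*, *Ttr* and *Hba-a2* were named after their values were seen. The part of these cell types in the values of Notch members was not tested.

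Several members share exon bases with other annotated genes, which limits how their reads can be assigned. *Notch1* shares up to 1068 bases with a transcript on the other strand, *Dll1* 867, *Notch3* 488 and *Numb* 166, *Notch2* shares 541 with one on its own strand, and whether the counting used strand is not given in the sources used here. *Dll3*, *Jag1*, *Jag2*, *Rbpj* and *Lfng* share none.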

How the data were processed

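Micro-dissected E15.5 cortex was profiled by ClickSeq with unique molecular identifiers. The authors deposited whole-number counts per gene and library, made per the processing notes with bcl2fastq 2.17, cutadapt 1.13, STAR 2.5.2a, UMI-tools 0.5.3 and HTSeq 0.6.1p1, and listing edgeR 3.18.1. The annotation release and the strand setting are not given in the sources used here. The 5 summary lines of each table were left out, and 51633 of 51912 gene IDs matched GENCODE M21 on GRCm38. Counts were compared between groups of mice with edgeR 4.0.16 in R 4.3.3 (TMM, likelihood ratio test, no filter, no covariate, Benjamini-Hochberg FDR over all listed genes), with DESeq2 1.42.0 as an alternative. Exact two-sided permutation tests over mice used log2 CPM with a prior count of 2 and relabelled mice without regard to litter. The fits were tested on simulated data. Expression-filtered genes are those kept by filterByExpr.

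Members and lists were chosen with earlier results of these data known. Named genes were the members, the called pathway genes and the 2 with the smallest p in each comparison, *Hes1*, *Hes5*, *Knl1*, *Trp53* and the 2 closest genes of each member. The labels give separate mice, and litters are shared between groups as described. Alternatives were other tools, scalings and filters, covariates, single batches, Casc5 wild type ctrl mice only, either S2 library alone, and each mouse left out in turn. Some genes of the pathway are not reported here.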

Additional observations from a re-analysis of the deposited data

Results flagged for a closer look

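Of 48 groups of 4 or 7 mice examined for a value far from the others, 4 held one past the 95% critical value of Dixon's test, which by its definition chance passes in about 1 in 20 such groups. *Notch1* in ctrl mouse S3 was at 152.6 CPM, on 298 counts, with the next ctrl mouse at 117.6 CPM. *Poglut1* in ctrl mouse T5 was at 44.46 CPM, on 20 counts, with the next at 31.97 CPM. *Jag2* in dKO mouse T8 was at 9.24 CPM, on 10 counts, with the nearest dKO mouse at 21.55 CPM. *Rbpj* in cKO mouse S2 was at 190.3 CPM, on 1673 counts, with the next cKO mouse at 146.7 CPM.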

How the results depend on the processing

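In cKO versus ctrl, where no member was called, 1 was called (*Notch2*) with the quasi-likelihood test, DESeq2, the expression filter and sex as a covariate, and 0 to 3 when 1 mouse was left out, the 3 (*Notch1*, *Notch2* and *Lfng*) without cKO mouse S2. Of the other pathway genes, where 1 was called, 2 were called with the quasi-likelihood test and DESeq2 (*Neurog2* and *Dner*), 0 with Casc5 wild type ctrl mice only and within batch 1, and 0 to 1 with 1 mouse left out. Over all listed genes, 83 were called in cKO and 26 in dKO, each against ctrl, and 27 between the mutants. These counts were 352, 113 and 184 with the quasi-likelihood test, 144, 3 and 11 with DESeq2, 138, 14 and 14 with the expression filter, and 49, 14 and 14 with all 3 groups in one fit. With Casc5 wild type ctrl mice only the first was 16 and the second 17, and within batch 1 the first was 13. Batch as a covariate gave 17 in dKO versus ctrl and 3 between the mutants, litter gave 4 in dKO versus ctrl, sex gave 44 and library totals 61 between the mutants, and leaving out litter 4 gave 0 and 72. With 1 mouse left out, the counts ran from 17 (without cKO 5) to 373 (without S2) in cKO versus ctrl, from 17 (without F7) to 59 (without T8) in dKO versus ctrl, and from 6 (without cKO 7) to 179 (without F1) between the mutants. Of the members' log2 fold changes under alternatives, 219 of 240, 215 of 229 and 183 of 200 kept their direction and their side of the threshold. The cause of the changes was not tested. Leaving out litter 4 was chosen after seeing the data. *Dll3*, *Hes1* and *Hes5* did not pass the filter in dKO versus ctrl, nor *Hes5* in cKO versus ctrl, and have no filtered value there. Depth limits *Dll3*, *Lfng*, *Hes1* and *Hes5* most, with as few as 2 counts in a mouse for *Dll3*.

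Signs turned as follows on the log2 scale. In cKO versus ctrl, *Jag2* was 0.0053 with the quasi-likelihood test, 0.016 with all 3 groups in one fit, 0.0032 with sex and 0.057 with library S2 alone, *Poglut1* was −0.0068 with DESeq2, −0.0088 with RLE size factors, −0.0098 with the expression filter and −0.058 with library totals, and *Hes5* was 0.0054 with all 3 groups, 0.19 with batch and 0.12 with sex. In dKO versus ctrl, litter as a covariate gave *Notch1* 0.21, *Notch2* 0.034, *Dll1* 0.23 and *Hes1* 0.42, and leaving out litter 4 gave *Notch1* 0.13, *Notch2* 0.014 and *Dll1* 0.23. There *Dll1* was 0.0014 with wild type ctrl mice only, *Jag2* was 0.12 with batch and 0.10 within batch 3, and *Hes1* was 0.21 and 0.20. In cKO versus dKO, batch as a covariate gave *Notch3* −0.52, *Jag1* −0.33, *Jag2* −0.0070, *Numb* −0.17 and *Neurl1a* 0.027, and litter gave *Notch3* −0.36, *Dll3* 0.023, *Jag1* −0.31, *Jag2* −0.19, *Numb* −0.15 and *Hes5* 0.18. *Numb* was −0.021 with library totals, and *Neurl1a* was 0.10 without litter 4.

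With 1 mouse left out in turn, the values that changed sign ran over these ranges. In cKO versus ctrl they were −0.048 to 0.32 for *Dll3*, −0.11 to 0.099 for *Jag2*, −0.013 to 0.10 for *Poglut1* and −0.33 to 0.39 for *Hes5*. In dKO versus ctrl they were −0.16 to 0.11 for *Dll1*, −0.080 to 0.71 for *Dll3*, −0.20 to 0.080 for *Jag2* and −0.0021 to 0.15 for *Dner*. In cKO versus dKO they were −0.11 to 0.30 for *Notch3*, −0.48 to 0.31 for *Dll3*, −0.058 to 0.25 for *Jag2*, −0.42 to 0.097 for *Lfng*, −0.028 to 0.14 for *Numb*, −0.76 to 0.088 for *Hes1*, −0.74 to 0.024 for *Hes5* and −0.20 to 0.13 for *Neurl1a*.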
